A study of Mus musculus with 12 samples.

Results

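The fatty acid binding proteins are small cytosolic carriers of long-chain fatty acids, and 7 of their genes, Fabp1 to Fabp7, were read here in mouse liver together with Adipoq. Adipoq encodes adiponectin, a hormone secreted by fat cells and not by hepatocytes, and served as a reading of adipose RNA on each array. The genes were taken by name, as the rows of the array table annotated with exactly 1 gene symbol equal to one of these names. They number 8 of the 19938 genes measured in this way, and the brightest row over all arrays stood for a gene with more than 1 row.

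The livers came from 6 male C57BL/6J mice given an adenovirus for ChREBP and from 6 given an adenovirus for GFP, a fluorescent protein that served as control. ChREBP, encoded by Mlxipl, is a transcription factor that responds to glucose metabolites and drives glycolytic and lipogenic genes. Both groups received virus through the tail vein, the labels give the age as 8 weeks, and all mice were fed and studied 3 weeks after injection, with 1 array per mouse and the mice labelled as biological replicates. The question is how an excess of ChREBP changes the liver's transcripts. The promoter that drove the ChREBP construct, its species and its isoform were not stated in the sources consulted, and whole tissue was read. Values are RMA values on the log2 scale, in which 1 unit is a 2-fold change, and every difference is ChREBP minus GFP.

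As background, each fatty acid binding protein folds into a barrel that holds fatty acids or related lipids, and each protein was first named for a tissue that holds it. FABP1 is the abundant form of hepatocytes, FABP2 that of the small intestine, FABP3 that of heart and muscle, FABP4 that of fat cells and macrophages, FABP5 that of skin, FABP6 the bile acid carrier of the ileum and FABP7 that of brain. Several of the proteins deliver ligands to the PPAR nuclear receptors, and several of the genes are PPAR targets: Fabp1 is a known target of PPARα in liver, and Fabp4 a known target of PPARγ in fat cells.

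Start-site windows from 250 bases before to 50 bases after the RefSeq start (build GRCm38.p6, 300 bases, 5′ to 3′ on the gene's strand) were found for 6 of the 8 genes, namely Fabp1, Fabp2, Fabp3, Fabp6, Fabp7 and Adipoq. Those of Fabp1, Fabp2, Fabp3 and Fabp7 are shown because Fabp2, Fabp3 and Fabp7 were higher in ChREBP livers while Fabp1, the liver's own form, did not pass the test. Fabp1 lies at chr6:71199629-71199928, Fabp2 at chr3:122894822-122895121, Fabp3 at chr4:130308488-130308787 and Fabp7 at chr10:57784673-57784972, all on the plus strand. Capitals mark matches, on either strand, to the nuclear receptor hexamer AGGTCA, to a pair of AGGNCA repeats 1 base apart (DR1, the arrangement that PPAR and RXR bind), and to the TATA letters TATAAA.
Fabp1: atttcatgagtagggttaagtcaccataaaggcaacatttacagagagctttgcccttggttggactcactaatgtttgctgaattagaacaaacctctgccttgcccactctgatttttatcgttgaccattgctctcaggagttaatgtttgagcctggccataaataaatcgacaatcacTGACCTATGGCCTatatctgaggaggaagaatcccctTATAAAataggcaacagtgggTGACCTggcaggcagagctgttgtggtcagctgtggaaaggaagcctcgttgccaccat
Fabp2: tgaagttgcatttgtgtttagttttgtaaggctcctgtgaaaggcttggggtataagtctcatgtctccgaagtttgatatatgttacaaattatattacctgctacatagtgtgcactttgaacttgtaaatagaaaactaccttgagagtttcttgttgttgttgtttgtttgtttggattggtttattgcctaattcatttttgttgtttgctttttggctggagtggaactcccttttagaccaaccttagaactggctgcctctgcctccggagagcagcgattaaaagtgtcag
Fabp3: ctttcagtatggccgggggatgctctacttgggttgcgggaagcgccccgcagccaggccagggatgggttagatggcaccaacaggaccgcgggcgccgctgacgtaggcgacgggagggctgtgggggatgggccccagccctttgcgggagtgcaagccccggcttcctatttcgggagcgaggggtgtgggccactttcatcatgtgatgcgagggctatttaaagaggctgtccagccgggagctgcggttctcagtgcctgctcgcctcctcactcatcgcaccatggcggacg
Fabp7: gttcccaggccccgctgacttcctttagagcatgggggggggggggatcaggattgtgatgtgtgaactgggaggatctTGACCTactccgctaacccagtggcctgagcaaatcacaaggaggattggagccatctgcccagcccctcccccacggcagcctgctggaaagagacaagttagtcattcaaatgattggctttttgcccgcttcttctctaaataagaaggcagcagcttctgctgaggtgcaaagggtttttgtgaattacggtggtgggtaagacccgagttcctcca

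The Fabp1 window held a DR1 match from -67 to -55 relative to the start, which contains the hexamer at -67 to -62, as well as TATAAA from -30 to -25 and a further hexamer from -9 to -4. The Fabp7 window held 1 hexamer, from -171 to -166, and those of Fabp2 and Fabp3 held no match. Of the windows not shown, that of Fabp6 held TATAAA on the other strand from -29 to -24, and that of Adipoq held no match. Of 32851 mouse windows of the same length searched on both strands, 16.3% held AGGTCA, 0.381% held the DR1 pair and 13.6% held TATAAA. The E-box CACGTG, a form of the element that ChREBP binds in pairs, was in 7.15% of all windows and in none of the 6 found here. A match is a description of letters and not a site, and these windows leave out more distant sequence.

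Mlxipl itself averaged 10.89 ± 0.08 in ChREBP livers and 9.32 ± 0.23 in GFP livers (SD, n = 6 each), a difference of 1.57 (SE 0.09, limma adjusted p = 2.86e-08). Over all genes 27.0% passed limma at an adjusted p under 0.05, 13.3% higher and 13.7% lower in ChREBP livers. These shares are the background for the limma counts of each list below. Hepatocyte transcripts such as Alb were near the top of the scale in every liver, and 10 of 11 hepatocyte markers were lower in ChREBP livers, with log2 sums of 15.90 to 16.08 against 16.20 to 16.29 in GFP livers. Transcripts of other tissues stood out on single arrays. Those of striated muscle did so on ChREBP 6 and GFP 6 (log2 sums 13.78 and 13.06, against 9.61 to 10.63 elsewhere). Those of keratinocytes did so on GFP 6 (9.94, against 8.25 to 8.36 elsewhere). Those of pancreatic acinar cells did so on ChREBP 4 and ChREBP 5 (15.48 and 15.31). The acinar sum was 10.77 on ChREBP 2, 9.75 on ChREBP 6 and 9.0 to 9.01 on ChREBP 1 and 3. In GFP livers it was 9.02 to 9.24. Of 10 acinar markers 1, Cpb1, was higher in ChREBP livers (3.69, limma adjusted p = 0.0388) and 0 were lower. At an unadjusted limma p under 0.05 there were 5, and by analysis of variance after adjustment 0. Ucp1, the uncoupling protein of brown fat, read 6.91 on GFP 4, against 4.34 to 5.28 on every other array.

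Of the 8 genes, 4 were higher in ChREBP livers (Fabp2, Fabp3, Fabp4 and Fabp7), 0 were lower and 4 did not pass (Fabp1, Fabp5, Fabp6 and Adipoq), beside the 13.3% of all genes that were higher. Their differences had a median of 0.34, and those of the 7 carriers one of 0.49, while the median over all genes was -0.04. By a second rule, an unadjusted p under 0.05 together with a 1.5-fold difference or more, Fabp3, Fabp4 and Fabp5 were higher, 3 of 8, where the rule took 5.7% of all genes, 4.1% as higher and 1.6% as lower. Fabp2 and Fabp4 had no overlap between the groups, 2 of 8 genes, where 15.2% of all genes had none, 8.33% lying higher and 6.83% lower in ChREBP livers. By size of difference Fabp3 ranked 72 and Fabp4 ranked 242 among the 19938 genes, followed by Fabp5 at 1120 and Fabp7 at 1635.

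**Figure D1:**
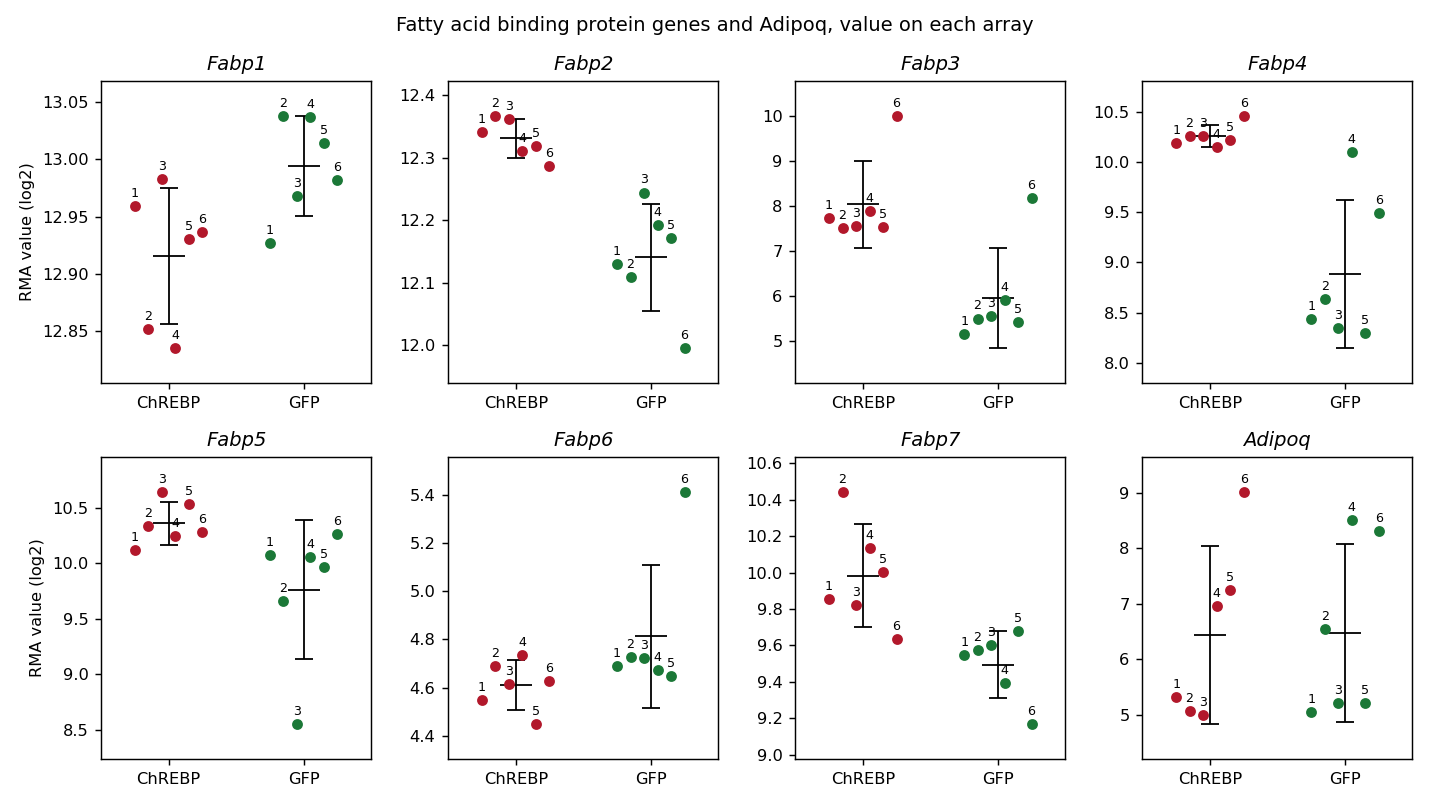
RMA value on the log2 scale (vertical axis, a separate range for each gene) of Fabp1 to Fabp7 and Adipoq on each of the 6 ChREBP and 6 GFP arrays. Points are single livers numbered by replicate, and bars give the mean and SD. Fabp2 and Fabp4 are higher on all 6 ChREBP arrays than on any GFP array, while Adipoq spans 5.01 to 9.02 in ChREBP livers and 5.05 to 8.52 in GFP livers.

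Fabp4, the carrier of fat cells and lipid-laden macrophages, was higher in ChREBP livers. It read 10.15 at the lowest, 10.24 at the median and 10.46 at the highest in ChREBP livers, against 8.30, 8.54 and 10.10 in GFP livers. The groups did not overlap, yet the GFP 4 liver at 10.10 came close to ChREBP 4 at 10.15, and GFP 6 at 9.49 was the next highest control. The remaining 4 GFP livers lay between 8.30 and 8.63. The difference was 1.37 (SE 0.26, 95% interval 0.80 to 1.94, limma adjusted p = 0.00141), a 2.59-fold difference, and the SD was 0.11 in ChREBP livers and 0.74 in GFP livers.

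Adipoq, read on the same arrays, averaged 6.44 ± 1.60 in ChREBP livers and 6.48 ± 1.60 in GFP livers (SD, n = 6 each). The difference of -0.04 did not pass and had a wide 95% interval of -1.74 to 1.67 (limma adjusted p = 0.976). Adipoq was high on ChREBP 6 at 9.02, ChREBP 5 at 7.25 and ChREBP 4 at 6.97, and on GFP 4 at 8.52, GFP 6 at 8.32 and GFP 2 at 6.54. These are also the arrays, GFP 2 apart, on which muscle, pancreas, keratinocyte or Ucp1 transcripts stood out. On the arrays where Adipoq was low, ChREBP 1 to 3 at 5.01 to 5.32 and GFP 1, 3 and 5 at 5.05 to 5.21, Fabp4 read 10.19 to 10.26 in the ChREBP livers and 8.30 to 8.44 in the GFP livers.

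Within the GFP group the livers with most Adipoq had most Fabp4, while within the ChREBP group Fabp4 stayed within 10.15 to 10.46 over the whole range of Adipoq. Across the 6 GFP livers Pearson's r was 0.952 (exact permutation p = 0.00833, adjusted over 4 values 0.0333) and Spearman's rho was 0.771 (exact permutation p = 0.103, adjusted 0.206). Without GFP 4 and GFP 6, the 2 livers farthest from the median Adipoq, r was 0.873 over 4 livers (exact permutation p = 0.25) and rho was 0.2, and 4 livers are too few for the test to tell whether the relation rested on those 2. Across the 6 ChREBP livers r was 0.575 (exact permutation p = 0.242, adjusted 0.322) and rho was 0.029 (exact permutation p = 1.0, adjusted 1.0), and r was -0.464 over 4 livers without ChREBP 3 and ChREBP 6. The difference between the groups' correlations was not tested.

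**Figure D2:**
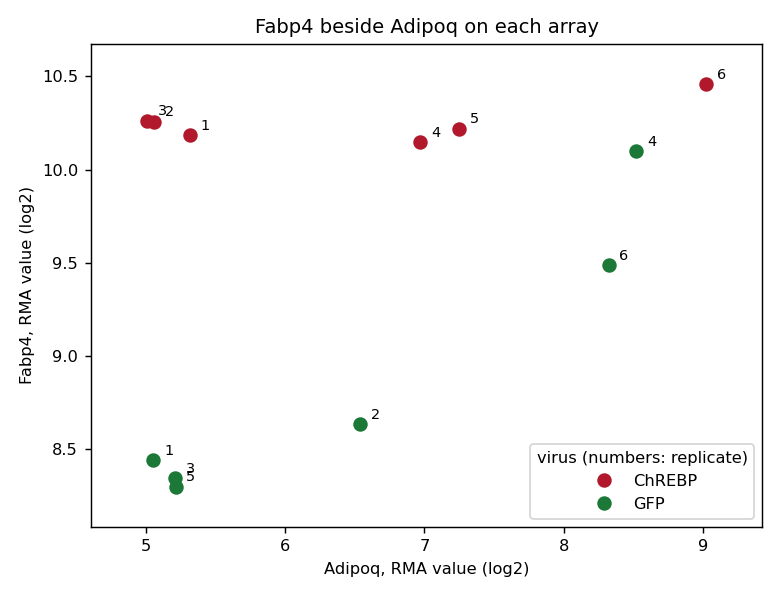
Fabp4 (vertical axis) against Adipoq (horizontal axis), both as RMA values on the log2 scale, for the 6 ChREBP and 6 GFP livers, each point numbered by replicate. All ChREBP livers lie between 10.15 and 10.46 for Fabp4, and among the GFP livers only GFP 4 (10.10) and GFP 6 (9.49), both high in Adipoq, come above 8.63.

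With Adipoq as a covariate the Fabp4 difference was 1.38 (limma adjusted p = 0.00013). Mean Adipoq was nearly equal in the groups (6.44 and 6.48), so this covariate could move the difference only slightly. The fit also used a common slope for both groups. Without GFP 4, GFP 6 and ChREBP 6 the Fabp4 difference was 1.79 (limma adjusted p = 8.68e-08). With the mean of 10 adipocyte markers as a covariate it was 0.24 and did not pass (limma adjusted p = 0.707). In the same fit Fabp3 was 0.75 and did not pass (limma adjusted p = 0.665). The differences of Fabp2, at 0.24 (SE 0.08), and Fabp7, at 0.59 (SE 0.23), were larger than without the covariate, with wider errors, and did not pass either (limma adjusted p = 0.101 and 0.137). The markers summed higher in every ChREBP liver, with log2 sums of 9.64 to 10.06 against 8.97 to 9.31 in GFP livers. The median difference of the 10 markers was -0.08. Cidea, a lipid droplet protein of fat cells and of fatty liver, had the largest difference of the list (3.15), at 8.02 to 9.17 in ChREBP livers and 5.07 to 6.09 in GFP livers, and Aqp7, the glycerol channel of fat cells, was higher by 0.48. Plin1, the droplet coat protein of fat cells, differed by -0.22 and was lower in ChREBP livers, and the other 7 adipocyte markers did not pass, among them Lep, the leptin gene, at 4.58 to 5.01 in ChREBP livers and 4.65 to 5.18 in GFP livers. With Cidea and Aqp7 left out of the mean, a choice made after the data were seen, the Fabp4 difference was 1.67 (limma adjusted p = 0.000158).

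The genes that followed Fabp4 most closely within the groups, by Pearson's r of deviations from the group means over 12 arrays, were Hey2 (0.896), Rpl23 (0.888), Exosc7 (0.858), Vpreb1 (0.855) and Abcb1b (0.849). All 5 were highest on GFP 4, none of the 5 passed between the groups, and the same measure was 0.725 for Adipoq. Fabp4 varied far more in GFP livers (SD 0.74) than in ChREBP livers (SD 0.11), so these values rest mostly on the GFP livers. They describe the arrays that stand apart and carry no test. Predicted genes, unnamed clones, small RNAs, odorant and pheromone receptors and antigen receptor genes were left out of this ranking for each member. Endothelial cells also use Fabp4, and 0 of 12 endothelial markers passed limma in either direction (1 at an unadjusted p under 0.05, and 0 by analysis of variance after adjustment). The endothelial log2 sum ran from 11.46 to 12.38 in ChREBP livers, highest on ChREBP 5, and from 11.75 to 11.87 in GFP livers.

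Macrophages are a further home of Fabp4, of Fabp5 and, for resident Kupffer cells in mouse, of Fabp7. Of 14 macrophage and Kupffer cell markers, 8 were higher and 4 were lower in ChREBP livers, and the log2 sum ran from 12.92 to 13.31 in ChREBP livers and from 12.31 to 12.54 in GFP livers. The higher ones were led by Mmp12, a macrophage elastase (difference 3.70), Cd9, a membrane organizer of lipid-associated macrophages (2.32), and Gpnmb, a glycoprotein of lysosome-rich macrophages (2.17), with Itgax, Cd5l, Cd68, Adgre1 and Csf1r between 0.50 and 0.94. Timd4, a receptor of resident Kupffer cells, was lower, at 6.29 to 6.68 in ChREBP livers and 7.78 to 8.22 in GFP livers, and Clec4f, Marco and Vsig4 were lower too. Trem2, a further macrophage marker of the list, did not pass (difference -0.10, limma adjusted p = 0.0876). It read 6.42 to 6.55 in ChREBP livers, below all GFP livers at 6.56 to 6.64. Lyz2 did not pass either (0.55, limma adjusted p = 0.0932). In whole liver, more cells of a type and more RNA per cell cannot be told apart, and the part of these cells in the levels of the carriers was not tested.

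Fabp3, the heart and muscle carrier, had the largest difference of the 8 genes. It read 7.52 at the lowest, 7.65 at the median and 9.9998 at the highest in ChREBP livers, against 5.14, 5.53 and 8.17 in GFP livers. The highest liver in each group was number 6, and without it the ChREBP livers lay between 7.52 and 7.88 and the GFP livers between 5.14 and 5.92, so that the groups overlapped only through GFP 6. The difference was 2.09 (SE 0.52, 95% interval 0.97 to 3.20, limma adjusted p = 0.00834), a 4.24-fold difference. A second row of the table annotated as Fabp3 gave 2.23, and whether either row also reads a related copy of the gene was not tested.

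ChREBP 6 and GFP 6 were also the livers with the highest striated muscle transcripts. Tnnt3, the troponin T of fast muscle, read 12.08 on ChREBP 6 and 11.43 on GFP 6, against 6.66 to 8.74 in the other ChREBP livers and 6.75 to 7.39 in the other GFP livers. Between the groups 0 of 12 muscle markers passed limma in either direction (0 at an unadjusted p under 0.05, and 0 by analysis of variance). The outlying array in each group widened the errors (Tnnt3 difference 0.34, SE 0.99), so this count says little about a muscle difference. Without ChREBP 6 and GFP 6 the Fabp3 difference was 2.14 (limma adjusted p = 2.23e-07), and with the mean of the muscle markers as a covariate it was 1.92 (limma adjusted p = 8.61e-07). Both settings were chosen after the data were seen.

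**Figure D3:**
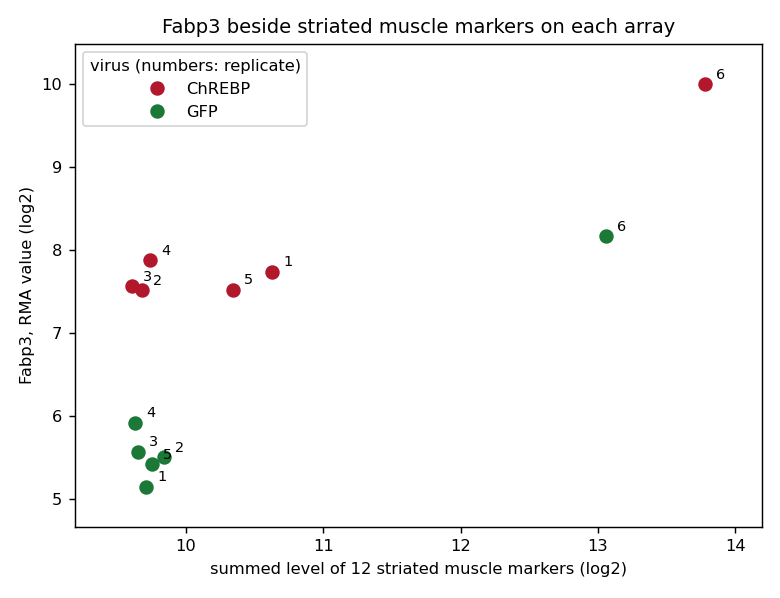
Fabp3 as an RMA value on the log2 scale (vertical axis) against the log2 of the summed linear values of the striated muscle markers (horizontal axis) in the 6 ChREBP and 6 GFP livers, each point numbered by replicate. ChREBP 6 and GFP 6 lie far to the right at 13.78 and 13.06, and among the other livers those of the ChREBP group (7.52 to 7.88) lie above those of the GFP group (5.14 to 5.92).

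The genes most like Fabp3 within the groups were Pgam2, the muscle phosphoglycerate mutase (r of deviations 0.975 over 12 arrays), Slc25a4, the ADP/ATP carrier of heart and muscle mitochondria (0.964), Xirp2 (0.963), Tnni2, a fast muscle troponin (0.962), and Tpm2, a tropomyosin (0.959). Each was highest on ChREBP 6. Slc25a4 was higher in ChREBP livers (difference 1.20, limma adjusted p = 0.021), as Fabp3 was, while the other 4 did not pass, with differences between 0.03 and 0.62.

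Fabp7, the brain carrier, was higher in ChREBP livers by less. Its values were 9.64 at the lowest, 9.93 at the median and 10.44 at the highest in ChREBP livers, against 9.17, 9.56 and 9.68 in GFP livers. The groups overlapped by a single pair, ChREBP 6 at 9.64 and GFP 5 at 9.68. The difference was 0.49 (SE 0.12, 95% interval 0.23 to 0.75, limma adjusted p = 0.0088), a 1.40-fold difference that falls short of a fold of 1.5. Of 7 glial and neural progenitor markers 0 passed limma in either direction (2 at an unadjusted p under 0.05, and 0 by analysis of variance after adjustment), with log2 sums of 8.06 to 8.27 in ChREBP livers and 8.15 to 8.28 in GFP livers. Most like Fabp7 within the groups were Glrx5 (r of deviations 0.927), Kcnv2 (0.908), Lgmn (0.904), Prss32 (0.902) and Ppcs (0.889). Of these 5, Lgmn, a lysosomal protease (0.64, limma adjusted p = 4.71e-06), Ppcs, an enzyme of coenzyme A synthesis (0.39, limma adjusted p = 0.000669), and Glrx5, a mitochondrial glutaredoxin (0.20, limma adjusted p = 0.011), were higher in ChREBP livers. Kcnv2, a potassium channel subunit, was lower (-0.21, limma adjusted p = 0.0293), and Prss32 did not pass (-0.05).

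Fabp2, the intestinal carrier, showed the smallest difference that passed. Its values ran from 12.29 to 12.37 in ChREBP livers, with a median of 12.33, and from 11.995 to 12.24 in GFP livers, with a median of 12.15. Every ChREBP liver lay above every GFP liver, and the difference was 0.19 (SE 0.05, limma adjusted p = 0.00661), a 1.14-fold difference. Without the 5 livers that stood out for transcripts of another tissue (ChREBP 4, 5 and 6, GFP 4 and 6) it was 0.19 again and no longer passed (limma adjusted p = 0.0564), with 7 arrays left, a setting chosen after the data were seen. Of 12 intestinal epithelium markers 5 were higher and 0 lower in ChREBP livers: Krt20, a keratin of gut lining (1.83), Lgals4, a galectin (0.60), Lct, the lactase gene (0.41), Slc5a1, the intestinal glucose carrier (0.29), and Vil1, a brush border protein (0.28). The list's log2 sum was 9.32 to 9.76 in ChREBP livers and 8.98 to 9.10 in GFP livers. It was highest on ChREBP 4 and ChREBP 5 (9.76 and 9.49), the livers with most pancreatic acinar transcripts. Vil1 read 5.48 and 5.28 on these arrays, against 4.88 to 5.07 in the other ChREBP livers and 4.71 to 4.88 in GFP livers. Alpi, which did not pass, read 6.65 and 5.98 there, against 5.21 to 5.60 elsewhere. Cdx2, the transcription factor that defines intestinal epithelium, read 5.13 to 5.32 in ChREBP livers and 5.23 to 5.40 in GFP livers. Without ChREBP 4 and ChREBP 5 the Fabp2 difference was 0.20 and passed (limma adjusted p = 0.0189). Fabp2 read 12.31 and 12.32 on these arrays, within the 12.29 to 12.37 of the ChREBP group. The part of intestinal transcripts in the Fabp2 values was not tested further.

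Fabp1, the hepatocyte carrier, did not pass. It read 12.84 at the lowest, 12.93 at the median and 12.98 at the highest in ChREBP livers, against 12.93, 13.00 and 13.04 in GFP livers, and the groups overlapped. The difference was -0.08 (95% interval -0.17 to 0.01, limma adjusted p = 0.179). Like Alb, Fabp1 read near the top of the scale, where the highest value of any row was 13.68. How well a change shows at that level was not tested. Alb, which did not pass either, differed by -0.07, and the 10 hepatocyte markers that were lower in ChREBP livers differed by -0.63 (Tat, tyrosine aminotransferase) to -0.11 (Ttr, transthyretin).

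Fabp5, the skin carrier, did not pass after adjustment over all genes. It read 10.12 at the lowest, 10.31 at the median and 10.65 at the highest in ChREBP livers, against 8.55, 10.01 and 10.26 in GFP livers, so the groups overlapped. The difference was 0.60 (SE 0.23, 95% interval 0.10 to 1.10, limma adjusted p = 0.0712), a 1.52-fold difference, and a second row annotated as Fabp5 gave 0.63. Whether either row also reads a related copy of the gene was not tested. A single control, GFP 3 at 8.55, set much of the size of the difference: without GFP 3 the difference was 0.36 and passed (limma adjusted p = 0.0337). It also passed without GFP 6, at 0.70 (limma adjusted p = 0.0427). On GFP 6 the keratinocyte genes Krt5 and Lor read 7.79 and 8.65, and 0 of 8 keratinocyte markers passed limma between the groups (0 at an unadjusted p under 0.05, and 0 by analysis of variance).

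Fabp6, the ileal bile acid carrier, was dim and did not pass, at 4.45 to 4.74 in ChREBP livers and 4.65 to 5.41 in GFP livers (difference -0.20, SE 0.11, limma adjusted p = 0.209). The GFP 6 liver stood apart at 5.41 from the other GFP livers at 4.65 to 4.73, and the genes most like Fabp6 within the groups, among them Lce3a, a gene of the skin's cornified layer (r of deviations 0.956), and Tgm3, a transglutaminase of skin (0.954), were also highest on GFP 6. Of 8 ileal bile acid genes and targets of the bile acid receptor FXR, 1 was higher and 4 were lower in ChREBP livers. Slc51b, a subunit of the transporter that moves bile acids out of ileal cells, was higher by 2.06, at 7.54 to 8.45 in ChREBP livers and 5.79 to 6.14 in GFP livers. Slc10a2, the ileal uptake carrier (-0.99), Slc10a1, the hepatocyte uptake carrier (-0.53), Nr0b2, the FXR-induced repressor (-0.48), and Abcb11, the bile salt export pump (-0.31), were lower.

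In the RefSeq gene order Fabp5, Pmp2, Fabp9, Fabp4 and Fabp12 are consecutive protein-coding genes on mouse chromosome 3, and only Fabp4 of these 5 passed. Pmp2, the myelin form, differed by -0.01, Fabp9, the testis form, by -0.03 and Fabp12 by -0.12, and all 3 were dim, between 3.81 and 5.10 on every array. With the retinoid carriers Rbp2, Rbp7, Crabp1 and Crabp2, these 3 make up the 7 other measured members of the intracellular lipid binding family, of which only Rbp7, a retinol carrier, passed. It was higher by 0.53 (SE 0.13, limma adjusted p = 0.00697), at 6.03 to 6.53 in ChREBP livers and 5.37 to 6.05 in GFP livers, where the groups overlapped through GFP 4 at 6.05. The 7 differences had a median of -0.05, and over all genes 13.3% were higher and 13.7% lower.

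Other cytosolic carriers of lipids and acyl-CoA were counted for comparison. Of 11 measured, 1 was higher and 4 were lower in ChREBP livers, beside 13.3% and 13.7% of all genes. Gltp, a glycolipid transfer protein, was higher by 0.32. Stard4, a cholesterol carrier (-0.51), Stard10, a phospholipid carrier (-0.26), Scp2, sterol carrier protein (-0.26), and Acbd4, an acyl-CoA binding protein (-0.24), were lower, and the median of the 11 was -0.06.

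Of 6 PPAR and RXR receptors, 1 was higher, 1 was lower and 4 did not pass, beside 13.3% of all genes higher and 13.7% lower. Pparg, the receptor of fat cells and of fatty liver, was higher by 1.21 (SE 0.11, limma adjusted p = 1.85e-06), at 8.95 to 9.34 in ChREBP livers and 7.49 to 8.16 in GFP livers, with no overlap. Rxra, the partner of the PPARs in hepatocytes, was lower (difference -0.40, limma adjusted p = 0.000493), and Ppara, the main hepatocyte PPAR, did not pass, at 9.39 to 9.74 in ChREBP livers and 9.40 to 9.80 in GFP livers. Rxrg, Ppard and Rxrb did not pass either, with differences of -0.22, 0.03 and 0.03.

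Of 11 genes known as PPARγ targets in fat cells and fatty liver, 7 were higher and 2 lower in ChREBP livers, with a median difference of 0.48. Cidea (3.15), Mogat1, a monoacylglycerol acyltransferase (2.72), Cidec, a lipid droplet protein (2.05), Cd36, the fatty acid uptake receptor (1.99), and Lpl, lipoprotein lipase (1.35), stood beside Fabp4 at 1.37. Aqp7 and Plin4 were higher by 0.48 and 0.32, while Pck1, the carboxykinase of gluconeogenesis (-0.76), and Plin1 (-0.22) were lower.

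Of 14 PPARα targets in hepatocytes, 7 were higher and 1 was lower, with a median of 0.30. Vnn1, a pantetheinase (1.98), Pdk4, the kinase that closes pyruvate dehydrogenase (1.69), Cyp4a14, a fatty acid hydroxylase (1.51), and Pex11a, a peroxisomal protein (0.93), led the rise. Acaa1b, Ehhadh and Cyp4a10, enzymes of peroxisomal and microsomal fatty acid oxidation, were higher by 0.73, 0.61 and 0.34, and Creb3l3, a hepatocyte transcription factor, was lower (-0.35). The mitochondrial enzymes Cpt1a, Cpt2, Acadm and Acadl did not pass, with differences between -0.11 and 0.12. Over all genes the median was -0.04. The lists overlap, so that Cidea, Aqp7, Plin1, Retn and Adig count both as adipocyte markers and as PPARγ targets. Of these, Cidea and Aqp7 were higher, Plin1 was lower, and Retn (-0.09) and Adig (-0.04) did not pass.

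**Figure D4:**
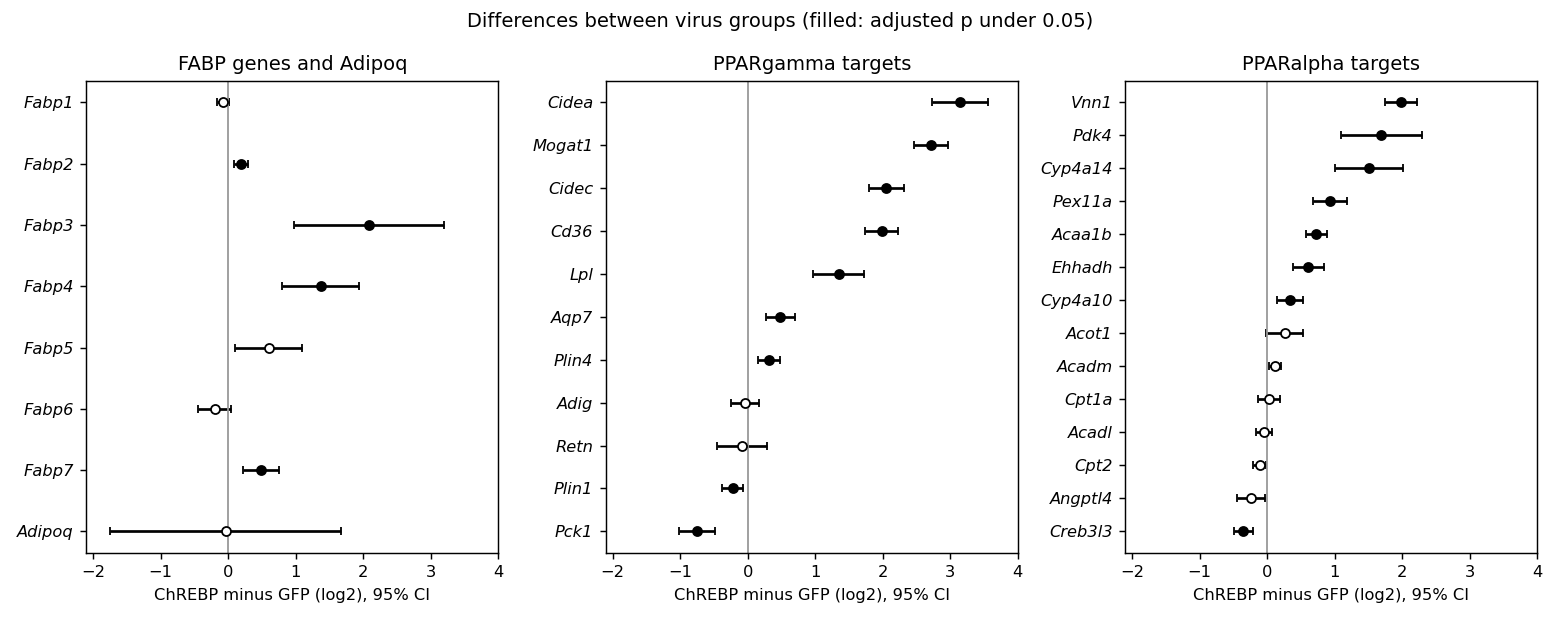
Difference of ChREBP minus GFP on the log2 scale with its 95% confidence interval (horizontal axis) for the 7 carriers and Adipoq (left), the 11 PPARγ targets (middle) and the 14 PPARα targets (right), from 6 arrays per group. Filled points passed limma at an adjusted p under 0.05. Fabp3 (2.09) and Fabp4 (1.37) are the largest of the left panel, and the interval of Adipoq spans -1.74 to 1.67.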

How the data were processed

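The authors hybridised liver RNA, amplified and biotin-labelled, to Affymetrix mouse gene arrays, 1 per mouse, and deposited log2 values. The submitters' processing notes name RMA, which corrects background, normalizes arrays by quantiles and summarises probes, and Partek, both without versions. Deposited array medians lay between 5.96 and 6.05. Neither scan dates nor detection calls were used, so no batch was tested and no gene was called absent. Precision is limited by the number of arrays. The study's array methods describe another experiment and only guided the test.

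Of 35556 rows, 21789 carried 1 gene symbol, updated through Entrez IDs (21698 matched in RefSeq, assembly GRCm38.p6), 1621 carried several and 12146 were not listed in the annotation. Groups came from the sample titles. The test was limma 3.58.1 (R 4.3.3, two-sided, no covariate), with Benjamini-Hochberg adjustment over 19938 genes, and called at an adjusted p under 0.05. Correlations and their exact permutation p were computed with numpy 2.4.6, with ranks from scipy 1.17.1. The procedure was tested on simulated data. A list's log2 sum is log2 of its summed linear values. Levels were not compared between genes, since probes differ.

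The members, gene lists and marker lists were chosen with earlier results of these data known. Named genes were the members, Mlxipl, up to 4 genes per list with the smallest p, genes completing a count of 5 or fewer, and for a member the 5 genes with the highest r of deviations. That ranking left out predicted genes, unnamed clones, small RNAs, odorant and pheromone receptors and antigen receptor genes. Further list members are named only to illustrate a group and were chosen after their values were seen. Alternatives were other normalizations, a filter on the 25% dimmest genes, row choices, moderation, array weights, analysis of variance, a replicate block, arrays left out and covariates.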

Additional observations from a re-analysis of the deposited data

Results flagged for a closer look

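A single array stood far from the other 5 of its group in 19 of 144 combinations of gene and group, judged by its gap to the nearest array as a share of the group's range (Dixon's limit). Chance flags about 1 in 20 such groups. Of the 16 combinations of the carriers and Adipoq, 5 were found: Fabp3 on ChREBP 6 (9.9998, others 7.52 to 7.88) and on GFP 6 (8.17, others 5.14 to 5.92), Fabp4 on ChREBP 6 (10.46, others 10.15 to 10.26), Fabp5 on GFP 3, which was low (8.55, others 9.66 to 10.26), and Fabp6 on GFP 6 (5.41, others 4.65 to 4.73).

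The striated muscle genes stood out on the same pair of arrays: Acta1 on ChREBP 6 (10.94) and GFP 6 (9.93), Myh4 on ChREBP 6 (5.33) and GFP 6 (6.50), and Myl1 (5.51) and Actc1 (9.50) on GFP 6. GFP 6 also stood apart for Crabp2, a retinoic acid carrier of skin (7.79, others 5.13 to 5.38), for the basal keratin Krt5 (7.79, others 4.97 to 5.33) and for the acinar protease gene Ctrb1 (6.90, others 5.45 to 5.92). In all, GFP 6 held 9 of the 19 and ChREBP 6 held 4.

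The others were Ucp1 on GFP 4 (6.91, others 4.38 to 4.58), the endothelial adhesion gene Pecam1 on ChREBP 5 (9.57, others 7.76 to 8.27), Pex11a, low on GFP 2 (8.64, others 9.28 to 9.48), Lct, low on GFP 5 (5.70, others 5.89 to 5.98), and Krt5, low on ChREBP 3 (4.91, others 5.09 to 5.20).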

How the results depend on the processing

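The direction of every carrier's difference was kept in all 30 alternatives run for it (29 for Fabp6, which the filter on dim genes removed), and Adipoq, near 0, was not called in 28 of 29. Leaving out each array in turn gave 4656 to 5632 genes called, against 5375 with all arrays, 4 to 5 of the 8 genes called, a Fabp4 difference of 1.25 to 1.61 and a Mlxipl difference of 1.52 to 1.63. It gave an r of Fabp4 with Adipoq of 0.944 to 0.969 in GFP livers, where with 5 arrays the adjusted exact permutation p no longer passed, and of -0.598 to 0.761 in ChREBP livers. With the adipocyte marker mean as a covariate 1698 genes and 1 of the 8 were called, the Fabp4 difference was 0.24, and Adipoq, at -3.49, was called as lower (limma adjusted p = 0.0346). By its construction that mean contains Cidea, which separated the groups.

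Replicate numbers did not pair the arrays: the correlation of deviations was over 0.1 in 1 of 6 pairs (-0.061 to 0.254), and 2 of 12 arrays correlated best with their own number. With the replicate number as a block 4439 genes were called, and the same 4 carriers passed, with a Fabp4 difference of 1.37 (limma adjusted p = 0.00252).

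All rows came from 6 arrays per group, and the summarised values do not show the signal over background of a dim gene such as Fabp6.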

Other observations

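Brown fat transcripts did not move together: 1 of 6 was higher and 1 lower, beside 13.3% and 13.7% of all genes. Of 6 markers, Cox7a1, a subunit of muscle and brown fat cytochrome oxidase, was higher in ChREBP livers by 1.40 (limma adjusted p = 0.00405), Elovl3, a fatty acid elongase that liver also expresses, was lower (difference -1.72, limma adjusted p = 4.54e-05), and the other 4 did not pass, Ucp1 among them (-0.25, limma adjusted p = 0.644).

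The genes that followed Adipoq most closely within the groups were Mustn1 (r of deviations 0.911 over 12 arrays), Jph2 (0.880), Tnnt2, the cardiac troponin T (0.875), Acta2, the smooth muscle actin (0.863), and Cpe (0.860), each highest on ChREBP 6 or GFP 6, and none of the 5 passed between the groups. The same measure between Adipoq and Fabp3 was 0.754. These arrays share high levels of muscle transcripts, and the values are a description without a test.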
